A study of Mus musculus with 7 samples.

Results

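A set of 9 genes used as marks of retinal bipolar cells was followed in the lens epithelium of mice without SPARC, a secreted glycoprotein of the extracellular matrix. The set holds Tacr3, Lin7a, Neurod4, Vsx1, Grm6, Trpm1, Pcp2, Cabp5 and Isl1. Every probe set that the platform annotation assigned to a single one of these symbols was taken, which gave 22 of the 45037 probe sets tested and 8 of the 9 genes. Grm6 had no such probe set and was not analysed here. Tacr3, Lin7a and Neurod4, with 9 probe sets, were chosen by their signals in these same lenses, which had been seen to be higher in SPARC-null samples, so their values are given as a description with no test. The other 5 genes, with 13 probe sets, were added as genes of the same cell type.

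The samples were 7 lenses from 28-day-old littermates, all from a single litter on a C57Bl/6 background under normal housing. The SPARC-null (KO) group had 4 lenses from 3 animals: the left and right lens of female animal 1 (1L and 1R), the left lens of female animal 4 (4L) and the left lens of animal 7, a male (7L). The wild-type (WT) group had the left lens of each of 3 females (2L, 5L and 6L). Lens epithelial cells were cut out by laser capture from stained cryosections, and their RNA was amplified in a pair of rounds before it was hybridised, 1 array per lens. The labels do not describe the null allele beyond the strain name, and the retina itself was not sampled.

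Bipolar cells are the interneurons that carry signals from photoreceptors to the ganglion and amacrine cells of the retina. OFF types respond to a decrease of light through ionotropic glutamate receptors, whereas ON types use the metabotropic receptor mGluR6, whose G protein cascade controls the cation channel TRPM1. Their fate depends on basic helix-loop-helix factors such as NEUROD4 and on homeodomain factors such as VSX1, OTX2 and ISL1. The lens is free of neurons.

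The promoters of 4 members are shown so that the DNA before the starts of members from both parts of the set can be read side by side: Tacr3 and Neurod4, which were picked for their signals, and Trpm1 and Isl1, which were not. Sequences are the 250 bases before a RefSeq transcript start, 5′ to 3′ on the strand of the gene, in mouse build GRCm38.p6. They cover chr3:134828757-134829006 (plus strand) for Tacr3, chr10:130280255-130280504 (minus strand) for Neurod4, chr7:64153585-64153834 (plus strand) for Trpm1 and chr13:116309689-116309938 (minus strand) for Isl1. Capitals mark matches to TAATCC, the letters bound by CRX and OTX2, to CAGATG, an E-box of the type bound by NeuroD factors, or to TAATTA, the core of many homeodomain sites, on either strand.
Tacr3: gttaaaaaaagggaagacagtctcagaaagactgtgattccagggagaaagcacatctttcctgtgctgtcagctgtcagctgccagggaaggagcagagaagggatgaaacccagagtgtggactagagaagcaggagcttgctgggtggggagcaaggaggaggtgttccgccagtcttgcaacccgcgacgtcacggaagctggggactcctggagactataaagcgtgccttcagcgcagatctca
Neurod4: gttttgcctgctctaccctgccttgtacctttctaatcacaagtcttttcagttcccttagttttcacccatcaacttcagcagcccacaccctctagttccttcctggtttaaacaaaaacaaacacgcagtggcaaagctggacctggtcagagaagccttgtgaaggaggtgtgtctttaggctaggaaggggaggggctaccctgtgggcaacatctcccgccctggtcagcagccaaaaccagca
Trpm1: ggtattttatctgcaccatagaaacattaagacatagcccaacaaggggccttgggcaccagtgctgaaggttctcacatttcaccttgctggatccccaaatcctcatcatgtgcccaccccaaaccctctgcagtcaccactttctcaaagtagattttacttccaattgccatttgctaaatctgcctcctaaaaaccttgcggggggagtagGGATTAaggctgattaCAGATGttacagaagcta
Isl1: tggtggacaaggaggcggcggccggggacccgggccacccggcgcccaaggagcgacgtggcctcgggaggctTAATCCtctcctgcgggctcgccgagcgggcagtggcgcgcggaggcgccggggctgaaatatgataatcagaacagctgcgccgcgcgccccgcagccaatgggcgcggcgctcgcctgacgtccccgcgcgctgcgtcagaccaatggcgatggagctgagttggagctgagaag

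The Tacr3 and Neurod4 windows held none of the searched letters. The Trpm1 window held GGATTA, the reverse complement of TAATCC, 34 bases before the start, and CAGATG 18 bases before it. The Isl1 window held TAATCC 177 bases before the start. Over all 32851 listed mouse starts, 6.25% of such windows held TAATCC, 14.4% held CAGATG and 4.84% held TAATTA on either strand. The 9 member genes had 15 starts, of which 3 had a window with TAATCC, 4 one with CAGATG and 1 one with TAATTA. The windows of Pcp2 starts 1 and 2 overlap and hold the same CAGATG site. By gene, which is not the unit of the shares, TAATCC was found for Cabp5, Isl1 and Trpm1. CAGATG was found for Lin7a, Pcp2 and Trpm1, and TAATTA for Pcp2. These matches are a description of letters and not of bound sites.

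The signals are linear intensities, in arbitrary units, 1 per probe set and lens. Differences are KO minus WT on the scale of log2(signal + 16) after quantile normalization, with the lenses 1L and 1R averaged, so that 3 KO animals stand against 3 WT animals. The highest signal of 27 bacterial control probe sets on any array, 45.48, served as a gauge of background. Of the 22 probe sets, 14 were above it in all 7 lenses, against 51.4% of all probe sets, 6 in some and 2 in none. A filter that asks for a signal above it in at least 3 lenses kept 19 of the 22. It kept 30651 of all 45037 probe sets. For each gene the probe set with the highest mean is called the brightest. SPARC itself set the groups apart as labelled: its probe set 1416589_at had signals of 8.14012 to 70.5304 in KO lenses, against 27370.5 to 49971.5 in WT lenses. The ratio of the 3' to the 5' Gapdh probe sets was 9.885 to 15.93 in KO lenses, against 3.749 in WT lens 2L, 9.058 in 5L and 15.9 in 6L.

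As measured, the bipolar genes lay higher in KO lenses: 21 of the 22 probe sets had a higher mean in KO animals, against 48.4% of all probe sets, and the brightest probe sets of all 8 genes did so, against 45.8% of 18193 genes. The median difference over the 8 brightest probe sets was 0.89, against -0.03 over all genes. Since the first 3 genes were picked for this direction, these counts describe the set and are no evidence for it. At an adjusted p of 0.05, 0 of the 22 probe sets passed in limma (lmFit and eBayes, two-sided, Benjamini-Hochberg over all probe sets), a line that 0.00666% of all probe sets passed. For the 9 probe sets of Tacr3, Lin7a and Neurod4, picked on these same values, this is a description and no test. In 5 of the 22 every KO lens lay above every WT lens, which held for 2.56% of all probe sets. In none did every KO lens lie below every WT lens, which held for 2.76%. The 5 were 2 probe sets of Tacr3, 2 of Lin7a and 1 of Neurod4. In such bulk samples a change in the number of cells of a type and a change in RNA per cell cannot be told apart. With 1 animal left out the median difference ran from 0.65 to 1.35, and it was 1.35 both without WT animal 2 and without KO animal 7.

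**Figure D1:**
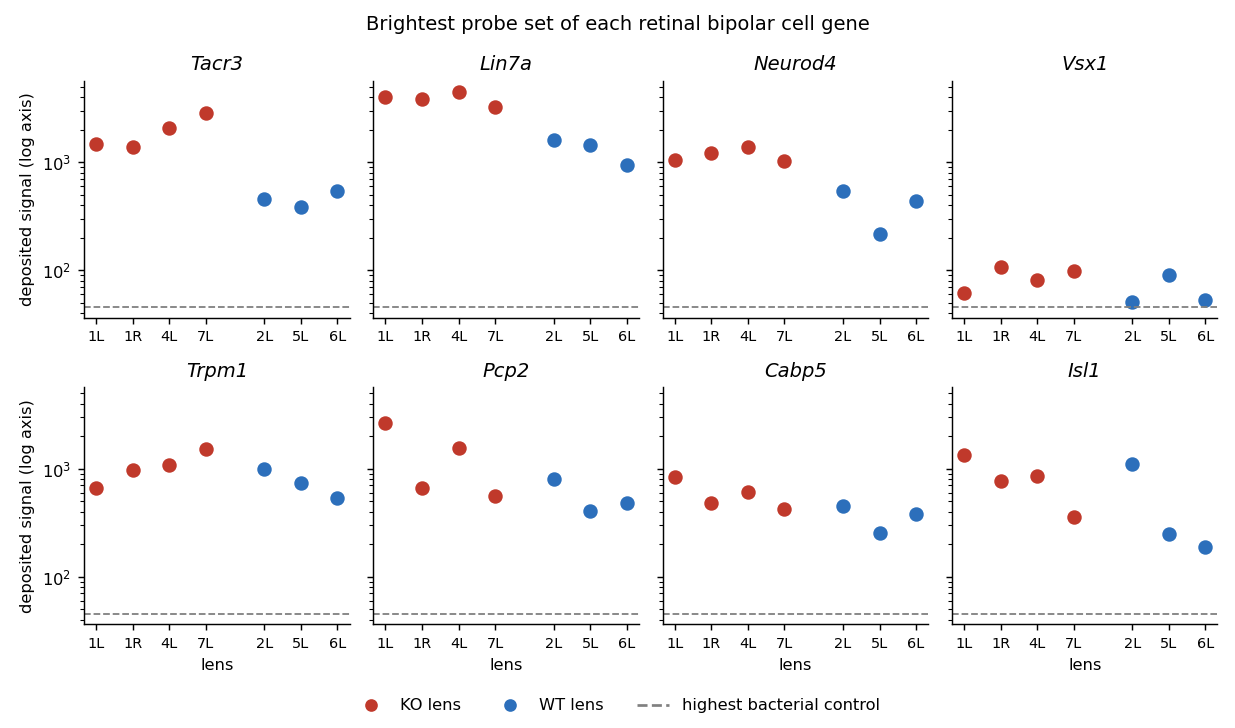
Deposited signal (log axis, arbitrary units) of the brightest probe set of each of the 8 genes, KO lenses left and WT lenses right, 1 point per lens, with the highest bacterial control as a dashed line at 45.48. The KO and WT points of Tacr3, Lin7a and Neurod4 do not overlap, whereas those of the other 5 genes do.

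Tacr3 encodes the neurokinin B receptor NK3R, a G protein-coupled receptor found on some OFF bipolar cells of the mouse. Its brightest probe set, 1440803_x_at, had signals of 1485.37, 1395.68, 2073.5 and 2848.75 in KO lenses 1L, 1R, 4L and 7L, against 453.443, 387.498 and 542.492 in WT lenses 2L, 5L and 6L. Every KO lens was well above every WT lens, and KO lens 7L was the highest. On the log2 scale it averaged 11.02 ± 0.48 in KO animals and 8.90 ± 0.25 in WT animals (SD, n = 3 each), a difference of 2.12 (SE 0.28) or 4.35-fold. The suffix of this identifier means that some of its probes can match other sequences. A second probe set, 1437029_at, gave 362.475, 348.619, 437.562 and 983.022 in KO lenses 1L, 1R, 4L and 7L, against 223.598, 76.192 and 71.1279 in WT lenses 2L, 5L and 6L. The groups did not overlap here either. Its difference was 2.13 (SE 0.47). KO lens 7L was again the highest, and WT lens 2L stood between 5L and 6L on the one side and the KO lenses on the other. The remaining Tacr3 probe set, 1450278_at, was at or under 45.48 in all 7 lenses, so no fold is given for it.

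Lin7a encodes a PDZ scaffold protein that joins CASK and the Mint proteins in a complex at synapses. Its brightest probe set, 1435805_at, gave 4008.26, 3818.95, 4490.35 and 3234.54 in KO lenses 1L, 1R, 4L and 7L, against 1616.98, 1451.81 and 935.59 in WT lenses 2L, 5L and 6L. KO lens 7L, the highest for Tacr3, was the lowest of the KO lenses for Lin7a but still above every WT lens. The mean was 11.91 ± 0.23 in KO animals and 10.36 ± 0.37 in WT animals (SD, n = 3 each), a difference of 1.55 (SE 0.24) or 2.92-fold. Probe set 1456656_at gave 418.882, 286.271, 529.82 and 740.932 in KO lenses 1L, 1R, 4L and 7L, against 281.076, 253.649 and 169.87 in WT lenses 2L, 5L and 6L. Here KO lens 1R lay close to WT lens 2L, and the difference was 1.07 (SE 0.33). The dimmest, 1438450_at, had 89.7 to 258.2 in KO lenses, against 33.6 to 117.7 in WT lenses, and its groups overlapped.

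Neurod4 encodes a basic helix-loop-helix transcription factor that takes part in making bipolar cells in the mouse retina. Its brightest probe set, 1436694_s_at, whose suffix marks probes shared between transcripts, gave 1058.52, 1222.22, 1388.51 and 1036.92 in KO lenses 1L, 1R, 4L and 7L, against 536.001, 216.775 and 436.003 in WT lenses 2L, 5L and 6L. The KO lenses were close to each other and all above the WT lenses. The mean was 10.22 ± 0.25 in KO animals and 8.61 ± 0.57 in WT animals (SD, n = 3 each), a difference of 1.61 (SE 0.31) or 3.06-fold. Probe set 1418054_at gave 374.553, 403.968, 239.195 and 409.632 in KO lenses 1L, 1R, 4L and 7L, against 341.513, 57.6389 and 78.39 in WT lenses 2L, 5L and 6L. WT lens 2L reached into the KO range, so the groups overlapped. Its difference was 1.37 (SE 0.53). The third probe set, 1418055_at, exceeded the highest control only in KO lens 4L.

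Across the probe sets whose groups did not overlap, the distance on the log2 scale from the lowest KO lens to the highest WT lens was 1.28 and 0.63 for Tacr3, 1.05 and 0.03 for Lin7a and 1.00 for Neurod4. The nearest probe sets on the other side were Trpm1 1418935_at at -0.02 and Cabp5 1451826_at at -0.02. The line between separate and overlapping groups thus ran between values 0.03 and -0.02, and it moved with the lenses used. With the signals as deposited, 6 of 22 probe sets were separate (3.3% of all probe sets), and without KO animal 7 also 6 (5.17%). Without WT animal 2 the count was 11 (6.73%), which added probe sets of Trpm1, Pcp2, Cabp5 and Isl1 and a second one of Neurod4. WT lens 2L was the highest WT lens in 15 of the 22 probe sets. The share over all probe sets was not counted, so this is not read as a trait of the bipolar genes.

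**Figure D2:**
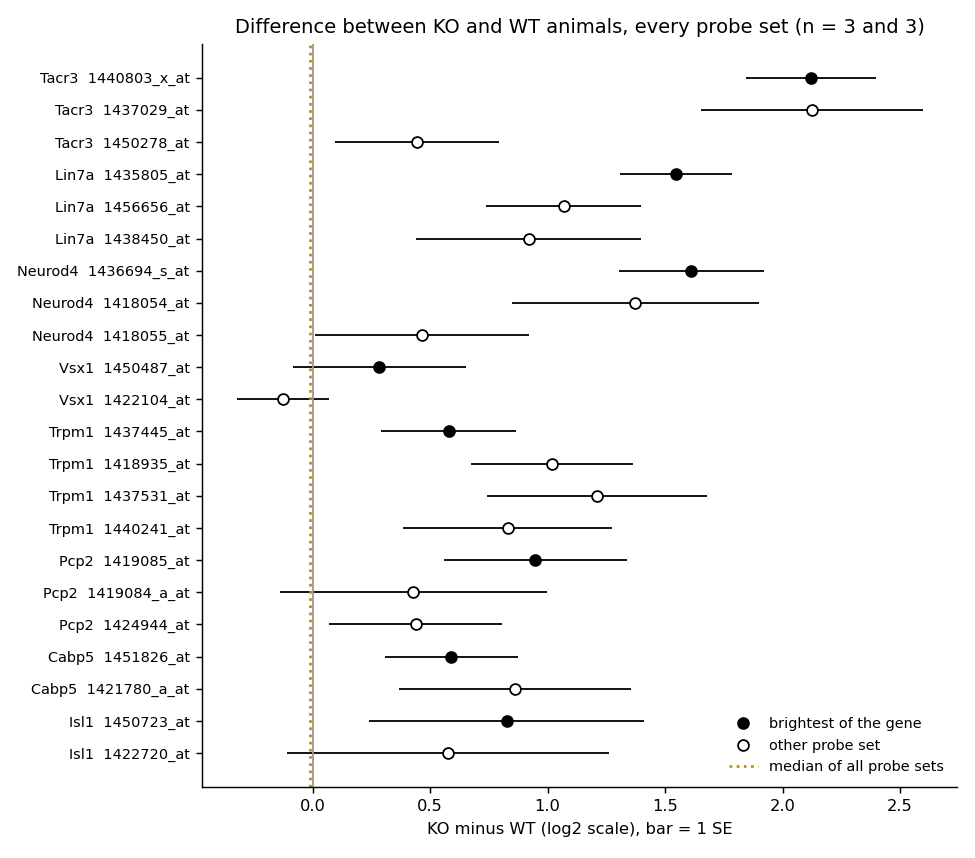
KO minus WT difference on the log2(signal + 16) scale with 1 SE for the 22 probe sets, filled points for the brightest of each gene and a dotted line at the median of all probe sets. The differences of the brightest probe sets run from 0.28 for Vsx1 to 2.12 for Tacr3, and 1 Vsx1 probe set lies below 0.

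Among the 5 genes that were not picked for their direction, the brightest probe sets all had a higher mean in KO animals, by 0.28 to 0.95, and in each the KO and WT lenses overlapped. None passed the adjusted p of 0.05, and the lowest adjusted p over their 13 probe sets was 0.99988 in limma. Of the 13, 3 had an unadjusted p under 0.05, all higher in KO, against 2.24% of all probe sets, and 0 were lower in KO at that line, against 1.81%. The 3 were Trpm1 1418935_at and 1437531_at, which read the same gene, and Pcp2 1419085_at. Only the Pcp2 probe set was the brightest of its gene, so the count does not describe all 5 genes.

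Trpm1, the channel of ON bipolar cells that is also made by pigment cells, had the most probe sets, 4. The brightest, 1437445_at, gave 659.244, 979.892, 1072.43 and 1534.87 in KO lenses 1L, 1R, 4L and 7L, against 984.457, 737.368 and 539.891 in WT lenses 2L, 5L and 6L. KO lens 7L was the highest, and KO lenses 1L and 1R lay within the WT range. The difference was 0.58 (SE 0.29, adjusted p = 0.99988 in limma), and it was 0.36 without KO animal 7. Probe set 1418935_at differed by 1.02 (SE 0.34), 1437531_at by 1.21 (SE 0.47) and 1440241_at by 0.83 (SE 0.44), with 7L the highest lens in each. They were 0.65 without WT animal 6, 0.71 without KO animal 7 and 0.50 without WT animal 6, in that order. The pigment enzyme genes Tyr and Dct were also highest in 7L. Tyr had 529.328, 576.785, 757.651 and 2685.78 in KO lenses 1L, 1R, 4L and 7L, against 1052.64, 453.813 and 236.878 in WT lenses 2L, 5L and 6L. Dct had 7588.51, 7796.65, 9805.82 and 18080.8 in KO lenses 1L, 1R, 4L and 7L, against 3026.44 to 10577 in WT lenses. The part of pigmented cells in the Trpm1 signal was not tested.

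Pcp2, which encodes a regulator of G protein signalling known from Purkinje cells and rod bipolar cells, differed most between the lenses of a single animal. Probe set 1419085_at gave 2620.11, 666.406, 1561.32 and 559.786 in KO lenses 1L, 1R, 4L and 7L, against 793.943, 404.325 and 481.285 in WT lenses 2L, 5L and 6L. Lens 1L was 1.98 above lens 1R of the same mouse on the log2 scale, and 1R and 7L fell within the WT range. The difference between the groups was 0.95 (SE 0.39, adjusted p = 0.99988 in limma), and 0.62 with 1R alone for animal 1. Probe sets 1419084_a_at and 1424944_at differed by 0.43 (SE 0.57) and 0.44 (SE 0.37), and the first turned to -0.06 without WT animal 6. In both the groups overlapped.

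Cabp5, a calcium-binding protein of rod bipolar cells and some cone bipolar cells, showed less spread. Probe set 1451826_at gave 836.566, 476.713, 602.8 and 420.205 in KO lenses 1L, 1R, 4L and 7L, against 446.884, 254.233 and 380.653 in WT lenses 2L, 5L and 6L. On the deposited scale only WT lens 2L reached the KO range, just above KO lens 7L. The difference was 0.59 (SE 0.28, adjusted p = 0.99988 in limma). The dimmer probe set, 1421780_a_at, had 57.4 to 81.2 in KO lenses, against 3.82 to 53.6 in WT lenses, and these signals did not overlap as deposited but did after normalization.

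Isl1, a LIM homeodomain factor of ON bipolar cells that ganglion cells and some amacrine cells also make, had its signals spread widely in both groups. Probe set 1450723_at gave 1346.9, 773.042, 858.718 and 356.081 in KO lenses 1L, 1R, 4L and 7L, against 1093.51, 247.85 and 186.751 in WT lenses 2L, 5L and 6L. WT lens 2L was above all KO lenses but 1L, whereas 5L and 6L were below all of them. The difference was 0.83 (SE 0.59, adjusted p = 0.99988 in limma), and it ran from 0.38 without WT animal 6 to 1.52 without WT animal 2. Probe set 1422720_at had 77.0 to 424.6 in KO lenses, against 29.3 to 271.9 in WT lenses, and its difference of 0.58 (SE 0.69) turned to -0.19 without WT animal 5.

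Vsx1, a homeodomain factor of some cone bipolar types, was near the control level. Probe set 1450487_at gave 60.9, 107.3, 81.2 and 98.5 in KO lenses 1L, 1R, 4L and 7L, against 50.8, 90.2 and 52.6 in WT lenses 2L, 5L and 6L. KO lenses 1R and 7L lay above every WT lens and the others within the WT range. The difference was 0.28 (SE 0.37, adjusted p = 0.99988 in limma), 0.15 without WT animal 6 and 0.51 without WT animal 5. The other Vsx1 probe set was under 45.48 in all 7 lenses and was the only one of the 22 with a lower mean in KO animals.

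**Figure D3:**
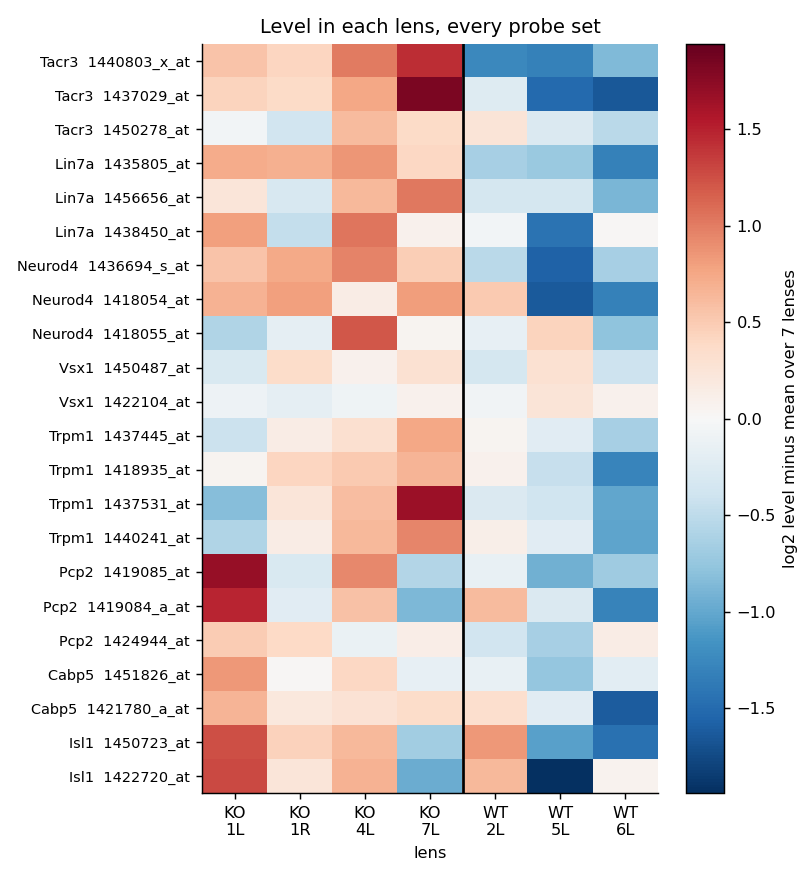
Log2(signal + 16) of each of the 22 probe sets minus its mean over the 7 lenses, probe sets down and lenses across with KO lenses left of WT lenses. The brightest probe sets of Tacr3, Lin7a and Neurod4 are above their mean in all 4 KO lenses and below it in all 3 WT lenses, and those of the other 5 genes are mixed.

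Over the 7 lenses the brightest probe sets of the picked genes followed each other, with Pearson's r of 0.852 between Tacr3 and Lin7a, 0.885 between Tacr3 and Neurod4 and 0.874 between Lin7a and Neurod4. Since all 3 were chosen for the same split of the lenses, these values describe that split. Those of the other genes with Tacr3 were 0.630 for Trpm1, 0.585 for Cabp5, 0.454 for Pcp2, 0.386 for Vsx1 and 0.302 for Isl1. Among 4404 probe sets of other genes above the median level and with an SD of at least 0.5 over the lenses, those closest to Tacr3 were Mllt10 (r = 0.974), 2 probe sets of Socs3 (r = 0.973 and 0.957), Serping1 (r = 0.969) and Piezo2 (r = 0.953). The first probe set of Socs3, an inhibitor of cytokine signalling, had 911.19, 774.161, 1572.52 and 2273.54 in KO lenses 1L, 1R, 4L and 7L, against 177.024, 290.976 and 382.323 in WT lenses 2L, 5L and 6L. In it 7L was the highest and 1R the lowest of the KO lenses, as for Tacr3, while in the other Socs3 probe set 4L was the highest and 1L the lowest. Closest to Lin7a were Otor (r = 0.984), Septin3 (r = 0.979), Nalcn (r = 0.975), Tnfrsf1a (r = 0.973) and Rasgrf1 (r = 0.964). Closest to Neurod4 were Pcdh8 (r = 0.987), Phyhipl (r = 0.978), Pcdh9 (r = 0.964), Diras2 (r = 0.959) and Slc43a3 (r = 0.959). Since the picked genes were chosen for the split of KO and WT lenses, a high r with them follows that split and is no support for it. The level was asked of the mean over all 7 lenses, so a probe set could pass through its KO lenses. Mllt10 had 36.3581 and 45.205 in WT lenses 2L and 5L, under the highest control of 45.48. The points are the same 7 lenses in each case, 1L and 1R come from 1 mouse, and no p is given.

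A wider list of 25 genes of bipolar cells was set beside the members, of which 22 were measured. By their brightest probe sets 18 had a higher mean in KO animals and 4 a lower one, against 45.8% of all genes higher, and the median difference was 0.34, against -0.03 over all genes. It was 0.13 without KO animal 1. None passed the adjusted p of 0.05, against 0.0055% of all genes. In 5 of the 22 every KO lens lay above every WT lens, against 2.54% of all genes, and in none every KO lens lay below every WT lens, against 2.95%. Of the 22, 3 had an unadjusted p under 0.05 in the direction of KO, against 2.26% of all genes, namely Syt2, Grik1 and Car10, and 0 in the other direction, against 1.81%. Grik1, a kainate receptor subunit of OFF bipolar cells, had 171.73, 102.096, 72.2886 and 108.713 in KO lenses 1L, 1R, 4L and 7L, against 54.6743, 3.61503 and 20.6505 in WT lenses 2L, 5L and 6L. All KO lenses were above the highest control, and only 1 of the WT lenses was. The difference was 1.60 (SE 0.51, adjusted p = 0.99988 in limma), and with WT signals this low it depended on the pseudocount, being 2.46 with 1 and 0.88 with 64. Syt2, a calcium sensor of synaptic vesicles, was at or under the control in all WT lenses and above it in 3 of 4 KO lenses. Car10, a carbonic anhydrase-related protein, differed by 0.71 (SE 0.31). By contrast Prkca, the kinase that marks rod bipolar cells, differed by 0.27 (SE 0.21, and 0.11 without KO animal 1), and Otx2, which photoreceptors make as well, by 0.34 (SE 0.49). The groups overlapped in both, and the Otx2 difference turned to -0.27 without WT animal 6.

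The partners of mGluR6 in ON bipolar cells, with 11 of 12 measured, had 7 higher and 4 lower means in KO animals and a median difference of 0.04. This median was -0.01 with median centring and 0.36 without WT animal 2. In 0 of the 11 did every KO lens lie above every WT lens, against 2.54% of all genes, and in 0 below, against 2.95%. Gng13, a G protein gamma subunit of the cascade, gave 1262.41, 636.134, 1128.65 and 329.237 in KO lenses 1L, 1R, 4L and 7L, against 422.186, 269.856 and 337.302 in WT lenses 2L, 5L and 6L. Lens 7L lay within the WT range and the other KO lenses above it. The difference was 1.00 (SE 0.42, adjusted p = 0.99988 in limma), 0.64 without KO animal 4 and 1.54 without KO animal 7. Gnb3, the beta subunit of the same G protein, differed by -0.32 (SE 0.27), and Rgs11, which speeds the end of the signal, by 0.02 (SE 0.37), which turned to -0.052 with median centring.

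Of a list of tachykinin ligands and other receptors, to which the kisspeptin genes Kiss1 and Kiss1r were added, 6 of 7 genes were measured. Of these, 5 had a higher and 1 a lower mean in KO animals, against 45.8% of all genes higher. The median difference was 0.34, between Tacr1 at 0.19 and Kiss1r at 0.49, and it was 0.61 with a filter on low values. Kiss1r, which is no tachykinin receptor, is among the 5 higher. Tac2, the precursor of neurokinin B and so of the ligand of the Tacr3 receptor, gave 109.377, 92.8013, 80.9052 and 31.1596 in KO lenses 1L, 1R, 4L and 7L, against 93.1354, 9.7445 and 20.3114 in WT lenses 2L, 5L and 6L. KO lens 7L, where Tacr3 was highest, had the lowest Tac2 signal of the KO lenses, under the highest control. Tac1, the precursor of substance P, had 526.28, 524.28, 357.453 and 436.754 in KO lenses 1L, 1R, 4L and 7L, against 116.176, 45.2563 and 379.667 in WT lenses 2L, 5L and 6L. WT lens 6L lay within the KO range, and the difference was 1.56 (SE 0.58, adjusted p = 0.99988 in limma). It was 0.93 without WT animal 5 and 2.29 without WT animal 6. Tacr1 was at or under the control in all lenses.

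The paralogs and partners of LIN7A, all 19 measured, had 9 higher and 10 lower means in KO animals and a median difference of -0.03, close to that of all genes. Lin7b differed by 0.89 (SE 0.45, and 0.57 without KO animal 4 or WT animal 5) and Lin7c by 0.28 (SE 0.45), which turned to -0.16 without KO animal 7. Cask, the partner kinase-like scaffold, gave 2242.87, 2219.26, 2790.45 and 2361.33 in KO lenses 1L, 1R, 4L and 7L, against 1416.74, 1940.27 and 1918.09 in WT lenses 2L, 5L and 6L. Cask and the scaffold gene Dlg2 were the 2 of 19 whose KO lenses all lay above the WT lenses, against 2.54% of all genes. Their differences were 0.52 (SE 0.21, adjusted p = 0.99988 in limma) for Cask and 0.99 (SE 0.32, adjusted p = 0.99988 in limma) for Dlg2. The proneural and Notch pathway factors, relatives and regulators of NEUROD4, had 13 of 14 measured, with 5 higher and 8 lower means in KO animals and a median difference of -0.23, which was -0.05 with a filter on low values. Neurod1, the relative of Neurod4 in photoreceptors, gave 9399.79, 11478.8, 7114.75 and 5673.39 in KO lenses 1L, 1R, 4L and 7L, against 8822.09, 8840.44 and 2379.17 in WT lenses 2L, 5L and 6L. The difference of 0.32 (SE 0.48) turned to -0.34 without WT animal 6.

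Markers of other cells of the eye were present in the same RNA. The photoreceptor list had 20 of 22 genes measured, and the brightest probe sets of all 20 were above the highest control in all 7 lenses. Of all probe sets 51.4% were, an unlike measure since it is not limited to the brightest of each gene. Its summed signal was 80617.9 to 128610 in KO lenses, against 74316.1 to 140205 in WT lenses, and 4 of its 20 genes had a higher and 16 a lower mean in KO animals, with a median difference of -0.21. That median was 0.06 without WT animal 5. The summed signal of the brightest probe sets of the 5 bipolar genes that were not picked was 5523.68, 3003.34, 4176.42 and 2969.47 in KO lenses 1L, 1R, 4L and 7L, against 3369.62, 1733.97 and 1641.2 in WT lenses 2L, 5L and 6L. The groups overlapped in both sums, through WT lens 2L for the bipolar genes. Sag, the rod arrestin gene, differed by 0.00 (SE 0.25). At an unadjusted p under 0.05 in limma 3 of the 20 photoreceptor genes were lower in KO, against 1.81% of all genes. None was higher, against 2.26%. The 3 were Opn1sw (-1.13, SE 0.49), Opn1mw (-0.77, SE 0.34) and Pde6g (-0.64, SE 0.26), and the groups overlapped in each. In 1 of the 20, Prph2, every KO lens lay below every WT lens, against 2.95% of all genes.

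For the other retinal neurons and glia the counts of higher means stand against the 45.8% of all genes. Of 12 ganglion cell genes measured 11 had a higher mean in KO animals (median difference 0.65), of 11 amacrine genes 8 (0.14, and -0.05 with only the right lens of KO animal 1), of 7 horizontal cell genes 5 (0.09, and -0.03 without KO animal 7) and of 13 Müller glia genes 10 (0.29, and 0.50 without WT animal 2). The summed ganglion cell signal was 2080.69 to 2848.05 in KO lenses, against 933.754 to 1637.24 in WT lenses, with no overlap. The summed Müller glia signal was 68385.6 to 77429.7 in KO lenses, against 67976.8 to 72548.8 in WT lenses, with overlap. Vim and Dkk3, with differences of -0.19 and -0.13, made up much of it, at 19647.3 and 18716.2 of 68385.6 in KO lens 1L. Of the 13 genes, 4 were higher in KO at an unadjusted p under 0.05 in limma, against 2.26% of all genes. They were Rlbp1, Glul, Slc1a3 and Gfap, and 0 were lower at that line, against 1.81%. The glial filament gene Gfap differed by 1.47 (SE 0.33) and the neurofilament gene Nefl by 1.38 (SE 0.37). The inhibitory enzyme gene Gad1 differed by 1.29 (SE 0.37, and 0.84 without WT animal 5), and its paralog Gad2 by -0.06 (SE 0.35). In Gfap, Nefl and Gad1, named for their small p, all KO lenses lay above all WT lenses, with an adjusted p of 0.99988 in limma. That split held for 2 of 13 Müller glia, 2 of 12 ganglion cell and 3 of 11 amacrine genes, against 2.54% of all genes. The 14 general neuronal genes had 8 higher means (median difference 0.10, and -0.06 without WT animal 6), and of 12 macrophage genes 11 were higher (0.39).

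Lens epithelium markers, the tissue the labels name, were present: 12 of 13 genes of that list were above the highest control in all 7 lenses. This held for 51.4% of all probe sets, which are not limited to the brightest of each gene as those of the list are. The exception was Foxe3, at or under the control in 3 of 4 KO lenses and 1 of 3 WT lenses, with a difference of -1.02 (SE 0.46). The summed signal of the list was 170115 to 205741 in KO lenses, against 128436 to 207090 in WT lenses, and the median difference was -0.01. The lens fibre genes had a median difference of -0.14 and overlapping sums. The ciliary body, iris and pigment epithelium list had 11 of 16 genes higher in KO animals, against 45.8% of all genes. Its median difference was 0.53, and 0.26 without KO animal 7, and its summed signal was highest in KO lens 7L, at 60489.5. Rpe65, a gene of pigment epithelium, went the other way, with 116.333 to 263.655 in KO lenses, against 278.226 to 678.87 in WT lenses. Its difference was -1.13 (SE 0.36). It was the 1 gene of the 16 with every KO lens below every WT lens, against 2.95% of all genes, and 1, Rlbp1, had every KO lens above, against 2.54%. No gene of any of these lists passed the adjusted p of 0.05. The part that retinal, ciliary or pigmented cells in the captured material had in the bipolar gene signals was not tested.

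**Figure D4:**
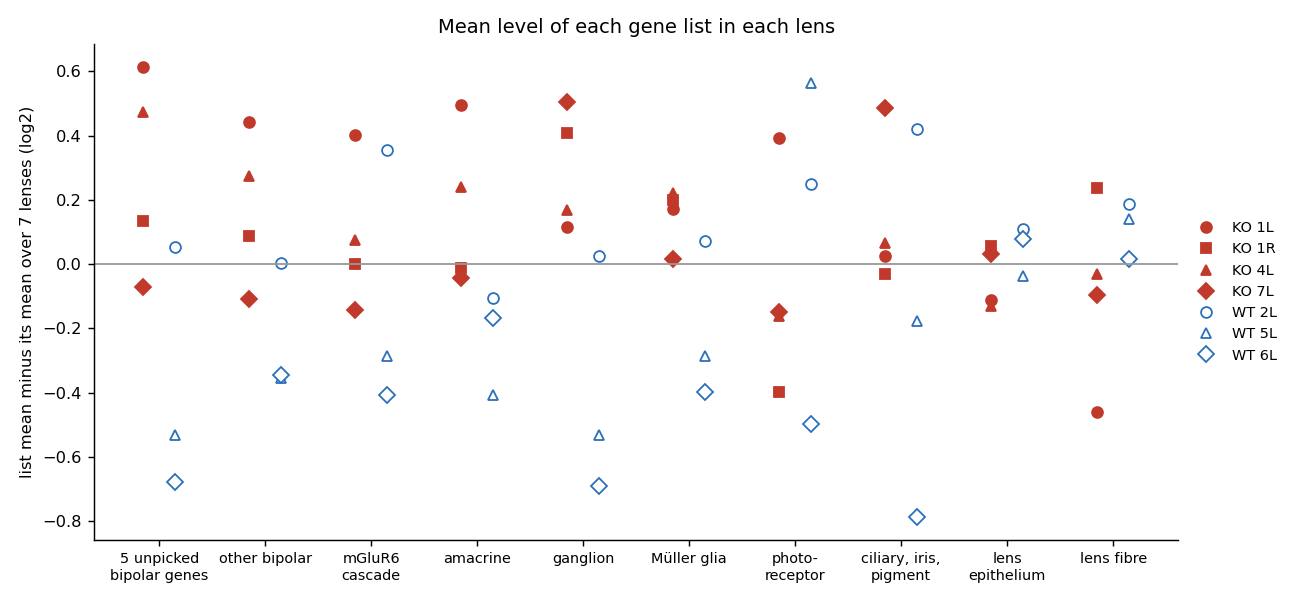
Mean log2(signal + 16) of 10 gene lists in each lens minus the list's mean over the 7 lenses, filled points for KO lenses and open points for WT lenses. The KO and WT points of the 5 bipolar genes that were not picked overlap, as do those of the photoreceptor and lens epithelium lists, whereas those of the amacrine and ganglion cell lists lie apart.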

How the data were processed

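The deposited values are linear intensity values, 1 for each probe set of an Affymetrix mouse array in each lens. The software that summarised the probes was not given in the sources used here. Per the labels' protocols, column-extracted RNA went through a pair of amplification cycles, which favours probe sets near the 3' end. On every array the mean after trimming 2% at each end was 500.003 or 500.004, so the arrays share a scale.

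Of 45101 probe sets, 64 controls were left out. After log2(signal + 16) the arrays were quantile normalized, and 1L and 1R were averaged. The pseudocount understates the change of weak probe sets. The KO and WT groups of animals were tested in limma 3.58.1 under R 4.3.3 (lmFit, eBayes with an intensity trend, two-sided, Benjamini-Hochberg over 45037 probe sets), and the code was tested on simulated data. Animals are separate mice of 1 litter, and 3 per group limit the precision. Of the probe sets, 34945 had 1 symbol, 932 several and 9160 none, and only the first were named. The files name no genome build, and coordinates belong to the RefSeq starts alone.

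Named were all members, up to 3 genes of each other list with the smallest p of which those described are given, direct partners of members and genes that show a list's level, and the 5 probe sets most like Tacr3, Lin7a or Neurod4. The members and lists were chosen with earlier results of these data known. Alternatives were other normalizations, pseudocounts of 1 and 64, a filter on low values, no trend, array weights, the 7 lenses unaveraged, 1L or 1R alone for animal 1, and each animal left out. List medians and the counts of non-overlapping probe sets under these alternatives were added after seeing the data.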

Additional observations from a re-analysis of the deposited data

Results flagged for a closer look

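Among 75 groups of 4 KO lenses, the values of 6 genes had a single lens whose gap to the nearest of the others, as a share of the group's range, was above Dixon's 95% critical value. Chance flags about 1 in 20 groups of independent values, but lenses 1L and 1R come from 1 mouse, so that rate does not hold here. None of the 6 was a member. The share was 0.85 for Dlg2, highest in KO lens 1L at 8.67 on the log2 scale, 0.837 for Tfap2b, also highest in 1L at 9.70, and 0.868 for Pou4f1, lowest in 1L at 6.50. It was 0.864 for Gnb3, lowest in KO lens 1R at 7.62, 0.863 for Nefl, lowest in 4L at 9.04, and 0.875 for Slc1a3, lowest in 7L at 7.73.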

How the results depend on the processing

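Over the 16 alternatives, 347 of 349 differences of member probe sets kept their direction and their side of the threshold, and none of the 8 brightest changed sign. The 2 that turned were Pcp2 1419084_a_at (-0.062 without WT animal 6, up to 0.92 without KO animal 7) and Isl1 1422720_at (-0.189 without WT animal 5, 1.14 without KO animal 7 and up to 1.225 with array weights). With animals left out the difference of Tacr3 1440803_x_at ran from 1.89 to 2.37, that of Lin7a 1435805_at from 1.34 to 1.67 and that of Neurod4 1436694_s_at from 1.28 to 1.81. No member and no gene of the other lists passed the adjusted p of 0.05 in limma under any of them, and 2 to 3 of all probe sets did. For Tacr3, Lin7a and Neurod4, picked on these same values, this is a description and no test.

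Among the other named genes, Rgs11 turned to -0.052 with median centring, -0.02 with 7 independent lenses, -0.16 with the right lens of animal 1, -0.15 without KO animal 4, -0.34 without WT animal 5 and -0.01 without WT animal 6, and reached 0.39 without WT animal 2. Lin7c ran from -0.16 without KO animal 7 to 0.80 without KO animal 4. Neurod1 ran from -0.34 to 0.74 and Otx2 from -0.27 to 0.80, without WT animals 6 and 2 in each case, and Bfsp1 turned to 0.009 with the right lens of animal 1. The cause was not tested. Signals near 45.48 limit Vsx1 and the dim probe sets. No paired analysis was possible because KO and WT share no animal number.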
